A study of Trichoderma reesei with 6 samples.

Results

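The genes described here are those of *T. reesei* that the deposited expression table lists under an *rpl*, *rps* or *rla* symbol followed by a number, the symbols of cytosolic ribosomal proteins. The rule uses the symbol alone and no measured value. Of the 9113 genes in the table, 42 carry such a symbol. In 22 of them (*rpl*, and *rla* for the acidic stalk) the symbol names a protein of the large subunit and in 20 (*rps*) one of the small subunit. Genes of further ribosomal proteins that are listed by locus tag only were not used. All 42 symbols were also found in the RefSeq annotation of the QM6a assembly, which gives each a locus tag.

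The ribosome translates mRNA into protein. Its small subunit binds the mRNA and reads the codons, and its large subunit joins the amino acids and holds the tunnel through which the new chain leaves. Ribosomal proteins are needed in matched amounts, and in fungi their genes are known for high transcript levels that rise and fall together with growth.

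The measurements are RNA-seq of mycelia of 2 strains, the reference QPP and the *gul1* deletion mutant Δ*gul1*, with 3 cultures each. Both derive from the uridine auxotroph QP4, a QM9414 derivative without *pyr4*, and both carry the *Aspergillus niger* marker *pyrG*, which replaced *gul1* in Δ*gul1* and integrated at random in QPP. Each strain is a single transformant, so a difference between them cannot be told apart from one between these transformants. *gul1* encodes a putative mRNA-binding protein. Cultures were grown for 36 hr with 2% glucose and then for 48 hr with 1% cellulose at 30°C. The values are FPKM (fragments per kilobase of gene and per 1e6 mapped fragments), and levels are set between genes on this scale. They are divided by gene length, so the level of a short gene rests on the length used. No gene of the table carries the conidial symbols *con6*, *con8*, *con10* or *con13*, so the share of conidia in the mycelia was not checked.

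The FPKM of each library rest on 17654286 to 21659230 fragments, and those of a single ribosomal protein gene on 4447 to 55114 fragments in a library. The upper number is that of *rps30* and holds for the longer of 2 possible lengths of this gene. It would be smaller at the shorter length. The mean *gul1* level (± SD, n = 3 cultures) was 83.1 ± 3.53 FPKM for QPP and 0.769 ± 0.200 FPKM for the deletion mutant, which fits the labels of all 6 libraries.

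All 42 genes were highly expressed in cellulose medium and above 0 FPKM in every library, so none was lost to the filter on genes without fragments. They are 0.461% of the genes in the table and took 4.40, 4.94 and 5.07% of the summed FPKM in the QPP libraries and 4.81, 4.23 and 4.47% in those of the mutant, each in the order of the replicate numbers. These shares overlap between the strains, with the lowest QPP value below the highest Δ*gul1* values. By mean FPKM the genes ranked between 9 and 390 of the 9113 genes, and 13 of them were among the first 100. The median of their mean levels was 648 FPKM, against 31.5 FPKM over all genes above 0.

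The highest level was that of *rps30* (TRIREDRAFT_68107), for a small subunit protein that in mammals is made as a fusion to a ubiquitin-like protein. It was at 5214, 6097 and 6799 FPKM across QPP replicates 1 to 3 and 7059.8, 5039 and 5763 FPKM across those of Δ*gul1*. In every library it stood above every other gene of the set, and the strains overlapped. Its mean was 17.9 times that of *rps3*, the lowest. Next came the large subunit gene *rpl40* (TRIREDRAFT_42919), which in *Saccharomyces cerevisiae* encodes a fusion of ubiquitin to a ribosomal protein. It was at 2679.6, 2982 and 2912 FPKM across QPP replicates 1 to 3 and 2709, 2341 and 2639 FPKM across those of Δ*gul1*. The level of *rpl29* (TRIREDRAFT_52763) was 1877, 2453 and 3001 FPKM across QPP replicates 1 to 3 and 2846, 1877 and 2302 FPKM across those of Δ*gul1*. It was high in QPP replicate 3 and Δ*gul1* replicate 1 and low in QPP replicate 1 and Δ*gul1* replicate 2. The small subunit gene *rps29* was at 1711, 1968 and 2194 FPKM across QPP replicates 1 to 3 and 2159.9, 1702 and 1765 FPKM across those of Δ*gul1*. *rps28* was at 1679.5, 1956 and 2087 FPKM across QPP replicates 1 to 3 and 2219, 1754 and 1794 FPKM across those of Δ*gul1*. Both had their lowest QPP value in replicate 1 and overlapped between the strains. *rps31*, the other gene of the set that encodes a ubiquitin fusion in *S. cerevisiae*, was at 1375, 1511 and 1642 FPKM across QPP replicates 1 to 3 and 1752, 1408 and 1447 FPKM across those of Δ*gul1*. The large subunit gene *rpl35* reached 1292 ± 99.1 FPKM for QPP and 1405 ± 135 FPKM for Δ*gul1* (SD, n = 3).

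At the lower end stood genes of both subunits. *rps3* (TRIREDRAFT_119855), for a protein at the entry of the mRNA channel, was at 346, 364 and 353 FPKM across QPP replicates 1 to 3 and 317, 306 and 329 FPKM across those of Δ*gul1*. All of its Δ*gul1* values lay below all of its QPP values. *rpl17* (TRIREDRAFT_123145), for a protein that lines the exit tunnel, was at 381 ± 25.2 FPKM for QPP and 353 ± 18.4 FPKM for Δ*gul1* and *rps7* at 386 ± 19.1 FPKM for QPP and 360.4 ± 14.8 FPKM for Δ*gul1* (SD, n = 3). *rps14*, for a protein of the platform of the small subunit, was at 383, 429 and 421 FPKM across QPP replicates 1 to 3 and 389.8, 378 and 416 FPKM across those of Δ*gul1*, with overlap between the strains. The lowest large subunit genes after *rpl17* were *rpl38* and *rpl8*. The former was at 355, 467 and 477 FPKM across QPP replicates 1 to 3 and 481, 372 and 418 FPKM across those of Δ*gul1*. The latter was at 408, 457 and 456 FPKM across QPP replicates 1 to 3 and 414, 425 and 433 FPKM across those of Δ*gul1*. Both overlapped between the strains, and *rpl38* varied more from culture to culture. When the 42 genes were ordered by mean FPKM, the ranges over the 6 libraries overlapped for 40 of the 41 neighbouring pairs, the exception being *rps30* and *rpl40*. After the first gene the levels formed a gradient without a gap.

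**Figure D1:**
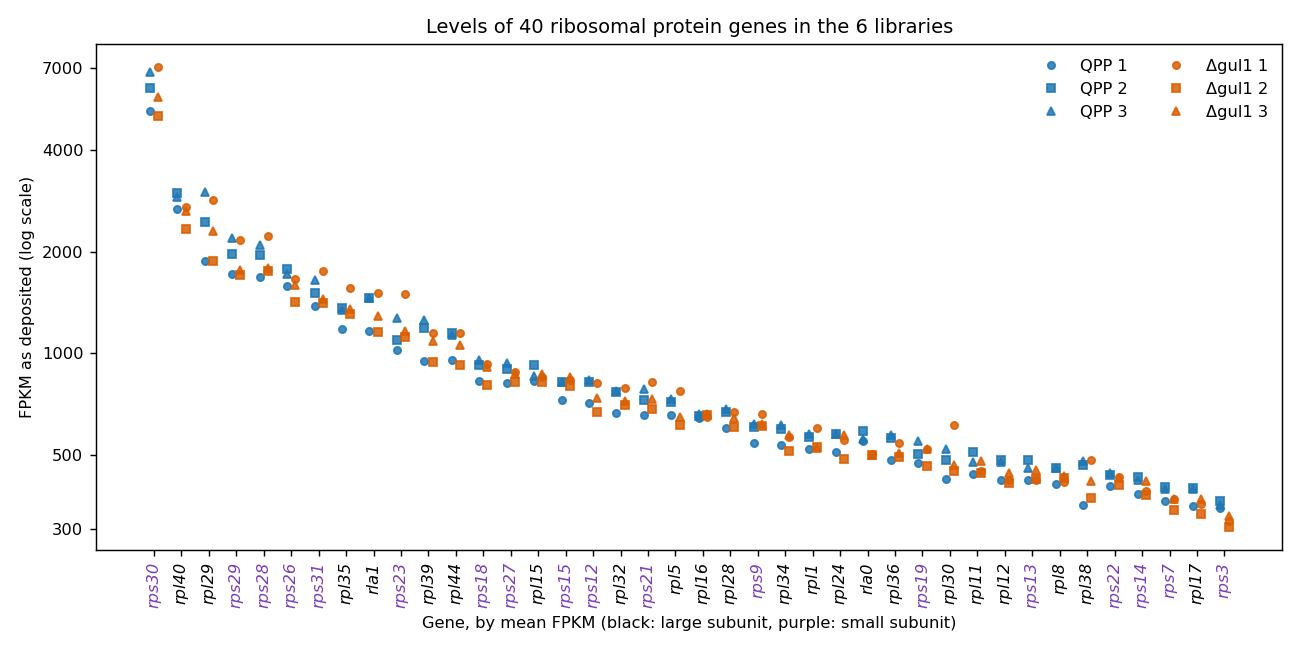
FPKM as deposited (log scale) of 40 of the 42 genes in each of the 6 libraries, ordered by mean FPKM, with QPP in blue, Δ*gul1* in orange and a marker per replicate. Levels decline gradually from *rpl40* to *rps3*, only *rps30* stands apart, and for most genes the points of both strains overlap.

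By the median, small subunit genes were at a higher level than large subunit genes in every library. The median of the small subunit genes lay between 675 and 816 FPKM and that of the large subunit genes between 566 and 636 FPKM over the 6 libraries. On the log2 scale the mean level of the large subunit genes was −0.13 to −0.18 relative to the small subunit genes. The levels within each subunit were far wider than this difference, from 336 to 5995 FPKM for the small and from 367 to 2710.4 FPKM for the large subunit. The log2 mean of the small subunit genes is raised by *rps30*, which stood far above the others, and was not computed without it. The gap in means therefore cannot be read as a trait of the small subunit genes as a group.

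The genes are short. The length over which fragments were counted, recovered from the steps of the FPKM values, was between 222 and 1348 bases with a median of 678, against a median of 1329 over all genes. For 37 genes this length was unique and for the other 5 (*rps28*, *rps29*, *rps30*, *rpl29* and *rpl35*) the longer of 2 possible lengths was taken. All values that use length, the range and median among them, rest on this choice for these 5 genes. The shorter genes had the higher levels (Pearson's r = −0.68 and Spearman's rho = −0.65 between log2 mean FPKM and counted length, across 42 genes, which are not independent replicates). FPKM is itself divided by this length, so part of a negative relation is built in. The 6 genes under 500 bases, *rps30*, *rpl40*, *rpl29*, *rps29*, *rps28* and *rps26*, were also those with the highest mean FPKM of the set. Their rank cannot be told apart from an effect of dividing by a short length. *rpl40* had 9174 to 14340 fragments in a library, and *rps31*, which had a lower FPKM, had 16755 to 24384. Among the 37 genes with a unique length, *rpl40* had the shortest and *rpl16* the longest. The part of the annotated gene outside the counted length, as introns are, varied. Its median was 31.2% of the span from start to end for the 42 genes, 18.2% for the 348 other genes at or above the level of *rps3* and 9.46% for all genes. Among the 37 genes with a unique length the share was highest in *rps22* (48.2%), *rpl15* (46.9%) and *rpl39* (45.2%) and lowest in *rla0* (5.38%). For the other 5 genes it would be larger at the shorter of their possible lengths, so they were not ranked.

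To find which transcripts differ once *gul1* is deleted, the strains were compared after the libraries had been scaled to each other by median-of-ratios size factors. On this scale the log2 fold change of each of the 42 was below 0, that is toward lower levels in the mutant, and 30 of them did not pass the test described next. Their log2 fold changes lay between −0.33 (*rla0*) and −0.0099 (*rps23*). The median was −0.20, a decrease of 13.2%, where the median of all genes tested was 0.00593 and 49.1% of them were below 0. The SD of the 42 values was 0.0704, against 0.447 over all genes and 0.692 over the 348 other genes at or above the level of *rps3*. These other highly expressed genes had a median of −0.060, with 205 of 348 below 0. In mycelia sequenced as a bulk, fewer cells that express these genes and less of their mRNA per cell cannot be told apart.

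In the limma fit over 9006 genes, 12 of the 42 had lower levels in the mutant at an adjusted *p* under 0.05 (Benjamini-Hochberg over all genes tested) and 0 were higher. Of all genes tested, 15.0% were called lower and 14.5% higher, and 25.0% of the 348 other genes at or above the level of *rps3* were called lower. The share in the set, 12 of 42 or 28.6%, is close to that among these other highly expressed genes. At an unadjusted *p* under 0.05, 22 genes passed. By the thresholds of the study (absolute log2 fold change above 1 and *p* under 0.05), limma called 0 of the 42 genes, as did limma-voom on the recovered fragments, where 3.95% of all genes passed with limma. In 22 of the 42 genes all scaled FPKM of Δ*gul1* were below all of QPP, a separation found for 22.7% of all genes.

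These calls rest on the scaling and on single libraries. Without the size factors, the median over all genes tested was at a log2 fold change of 0.14, that of the 42 genes was −0.046, and 32 of them were below 0, where 28.4% of all genes were. Relative to the median of all genes the shift was −0.19 as deposited and −0.21 after scaling. With limma on the FPKM as deposited, 0 of the 42 genes were lower at an adjusted *p* under 0.05, where 8.28% of all genes were, and 2 passed (*rla0* and *rps3*) at an unadjusted *p* under 0.05. The number with an adjusted *p* under 0.05 was 2 without QPP replicate 2, 3 without QPP replicate 3, 3 without Δ*gul1* replicate 2 and 5 without Δ*gul1* replicate 3, with 10.2 to 12.1% of all genes called lower in these fits.

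**Figure D2:**
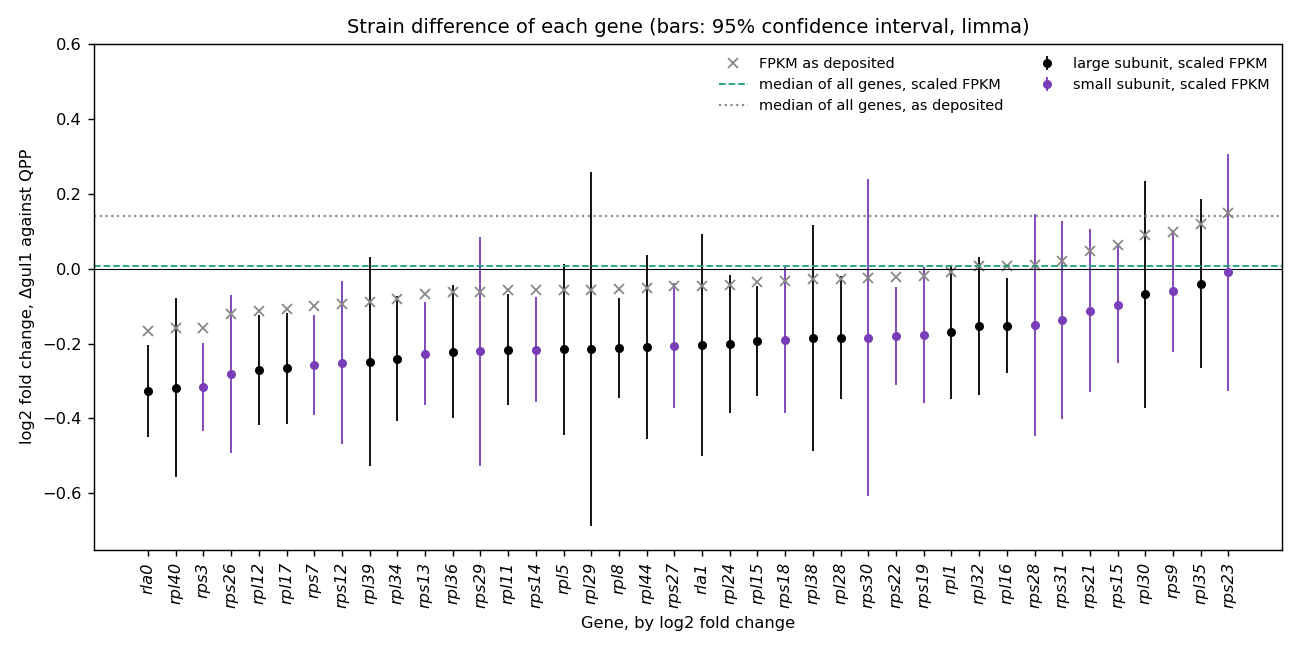
Log2 fold change of 40 of the 42 genes in Δ*gul1* against QPP, each with its 95% confidence interval from limma on scaled FPKM (black, large subunit; purple, small subunit), the value with the FPKM as deposited (grey crosses) and the medians of all genes (lines). All 40 scaled values shown lie below 0 and within a narrow band, and 10 of the unscaled values lie above 0.

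Among the large subunit genes, *rla0* (TRIREDRAFT_76532) had the lowest log2 fold change. It encodes P0, at the base of the stalk, the lateral protuberance that recruits translation factors. The gene lies from 1280678 to 1281922 on its scaffold in the QM6a assembly. Its level was 587, 608 and 585 scaled FPKM across the QPP replicates and 480.0, 472 and 468 across those of Δ*gul1*. The strains did not overlap, and the spread within a strain was small. In the FPKM as deposited, all Δ*gul1* values were below all QPP values for 2 genes of the set, *rla0* and *rps3*, and for 11.8% of all genes. Its log2 fold change was −0.33 (standard error 0.0528, adjusted *p* = 0.00322 in limma after the Benjamini-Hochberg procedure). The adjusted *p* lay between 0.00265 and 0.0514 over the 17 alternatives, above 0.05 only with the FPKM as deposited. *rla1*, for the acidic protein P1 that binds to P0, was at 1252, 1507 and 1539 scaled FPKM across the QPP replicates and 1442, 1091 and 1208 across those of Δ*gul1*. Its strains overlapped, and its log2 fold change of −0.20 (95% confidence interval −0.50 to 0.092) did not pass the test (adjusted *p* = 0.274 in limma).

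*rpl12*, for another protein of the stalk base, was at 451, 500.4 and 503 scaled FPKM across the QPP replicates and 402, 389 and 413 across those of Δ*gul1*, without overlap. Its log2 fold change was −0.27 (standard error 0.0637, adjusted *p* = 0.0161 in limma), and it was called under 13 of 17 alternatives. The exit tunnel gene *rpl17* had 378, 411 and 416 scaled FPKM across the QPP replicates and 341, 315 and 345 across those of Δ*gul1* (log2 fold change −0.27, standard error 0.0640, adjusted *p* = 0.0176 in limma), again without overlap. Of the genes for the proteins that bind 5S rRNA, *rpl11* fell (log2 fold change −0.22, adjusted *p* = 0.0382 in limma) and *rpl5* was at −0.22 (95% confidence interval −0.44 to 0.012), which did not pass. *rpl8* and *rpl34* fell with log2 fold changes of −0.21 and −0.24 (adjusted *p* = 0.0288 and 0.0399 in limma). Of 17 alternatives, 7 called *rpl11* as lower, 9 called *rpl8* and 9 called *rpl34*.

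*rpl40* had the second lowest log2 fold change of the set, −0.32, with 2878, 3090.4 and 3075 scaled FPKM across the QPP replicates and 2585, 2216 and 2468 across those of Δ*gul1*. The strains did not overlap on this scale, and the standard error was 0.103. It missed the threshold (adjusted *p* = 0.0518 in limma) but passed without the trend (adjusted *p* = 0.0232) and in limma-voom (0.0121). In all, *rpl40* was called under 8 of 17 alternatives. Its adjusted *p* in limma was 0.108 with the replicate block and 0.280 with the FPKM as deposited. At the other end, *rpl35*, for a protein near the tunnel exit, was at 1265, 1406 and 1418 scaled FPKM across the QPP replicates and 1487, 1232 and 1267 across those of Δ*gul1*. Its log2 fold change was −0.040 (95% confidence interval −0.27 to 0.19), and it was 0.12 with the FPKM as deposited. *rpl30*, whose product binds its own transcript in *S. cerevisiae*, was at 455, 499.5 and 548 scaled FPKM across the QPP replicates and 584, 424 and 435 across those of Δ*gul1*, so that Δ*gul1* replicate 1 was the highest library of all and the other Δ*gul1* libraries the lowest. Its log2 fold change of −0.068 (95% confidence interval −0.37 to 0.23) turned to 0.090 with the FPKM as deposited.

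Among the small subunit genes, *rps3* had the lowest log2 fold change. It was at 372, 377 and 373 scaled FPKM across the QPP replicates and 303, 289 and 308 across those of Δ*gul1*, with no overlap and a narrow spread in both strains. The log2 fold change was −0.32 (standard error 0.0505, adjusted *p* = 0.00298 in limma after the Benjamini-Hochberg procedure), and the adjusted *p* lay between 0.00283 and 0.0536 over the 17 alternatives, above 0.05 only with the FPKM as deposited. *rla0* and *rps3* were the only genes of the set that kept an adjusted *p* under 0.05 (limma) with any 1 library left out.

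*rps7* was at 391, 414 and 417 scaled FPKM across the QPP replicates and 352, 325 and 345 across those of Δ*gul1* (log2 fold change −0.26, standard error 0.0575, adjusted *p* = 0.0132 in limma), and the strains did not overlap. The small subunit genes *rps13*, *rps14* and *rps22* fell too, with log2 fold changes of −0.23, −0.22 and −0.18 and adjusted *p* between 0.0246 and 0.0464 (limma). They were called under 9, 7 and 3 of 17 alternatives. *rps26*, for a protein at the exit of the mRNA channel, was at 1694, 1846 and 1811 scaled FPKM across the QPP replicates and 1585, 1343 and 1484 across those of Δ*gul1*. It had the fourth lowest log2 fold change of the set, −0.28, without overlap between the strains. It missed the threshold (adjusted *p* = 0.0525 in limma), which it passed without the trend (adjusted *p* = 0.0405) and in limma-voom (0.0239). In all, *rps26* was called under 7 of 17 alternatives. Its adjusted *p* in limma was 0.102 with the replicate block and 0.345 with the FPKM as deposited.

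*rps23*, for a protein of the decoding centre that governs accuracy, had the highest log2 fold change of the set, −0.0099 (95% confidence interval −0.33 to 0.31). It was at 1099, 1137 and 1346 scaled FPKM across the QPP replicates and 1432, 1055 and 1090.1 across those of Δ*gul1*. Δ*gul1* replicate 1 was the highest of all 6 libraries and Δ*gul1* replicate 2 the lowest. Without the size factors this fold change became 0.15, and it was 0.077 without QPP replicate 3. *rps9* was at 581, 626 and 649 scaled FPKM across the QPP replicates and 630.4, 575 and 575 across those of Δ*gul1* (log2 fold change −0.060, 95% confidence interval −0.22 to 0.10) and *rps15* at 782, 851 and 868 scaled FPKM across the QPP replicates and 791, 755 and 792 across those of Δ*gul1* (−0.10, −0.25 to 0.061). For both the strains overlapped, and with the FPKM as deposited the log2 fold changes were 0.10 and 0.063. The abundant *rps30* had a log2 fold change of −0.18 with a 95% confidence interval of −0.61 to 0.24, so that a change of this size was not detectable with its spread between cultures.

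The median log2 fold changes of the subunits were close to each other. Of the 22 large subunit genes, 6 were lower at an adjusted *p* under 0.05 (limma) and 12 had strains that did not overlap, and of the 20 small subunit genes these numbers were 6 and 10. The median log2 fold change was −0.21 for the large and −0.19 for the small subunit, a difference of −0.023. This difference was between −0.031 and 0.0097 with 1 library left out in turn, and changed sign when QPP replicate 2 or Δ*gul1* replicate 2 was left out. In single libraries, the mean log2 level of large relative to small subunit genes was −0.18, −0.13 and −0.16 in QPP and −0.17, −0.18 and −0.18 in Δ*gul1*, so that the strains overlapped. These means include *rps30*, which raises that of the small subunit.

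Within a strain, the genes of both subunits moved together from library to library. Each gene's deviation from the mean of its strain was taken on the log2 scale of scaled FPKM, which removes the difference between the strains. In QPP, replicate 1 was the lowest library for 40 of the 42 genes and replicate 3 the highest for 34, while among 6635 other genes of at least 10 FPKM replicate 1 was the lowest for 32.3% and replicate 3 the highest for 34.1%. In Δ*gul1*, replicate 2 was the lowest for 37 genes and replicate 1 the highest for 30, against 34.0% and 35.6% of the other genes. The libraries thus differed in the level of the set as a whole. Each culture gave a single library, so a difference between cultures cannot be told apart from one of RNA or library preparation.

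The median deviation of the 42 genes was −0.090, 0.026 and 0.066 across the QPP replicates and 0.090, −0.090 and 0.00478 in Δ*gul1* replicates 1 to 3. Those of large and small subunit genes were within 0.0241 of each other in every library. The median over all genes tested was within 0.00491 of 0 in every library, and that of the 348 other genes at or above the level of *rps3* ran from −0.063 in Δ*gul1* replicate 2 to 0.053 in Δ*gul1* replicate 1. The swing of the set between cultures of 1 strain, 0.16 in QPP and 0.18 in Δ*gul1*, was close to the size of the median difference between the strains.

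**Figure D3:**
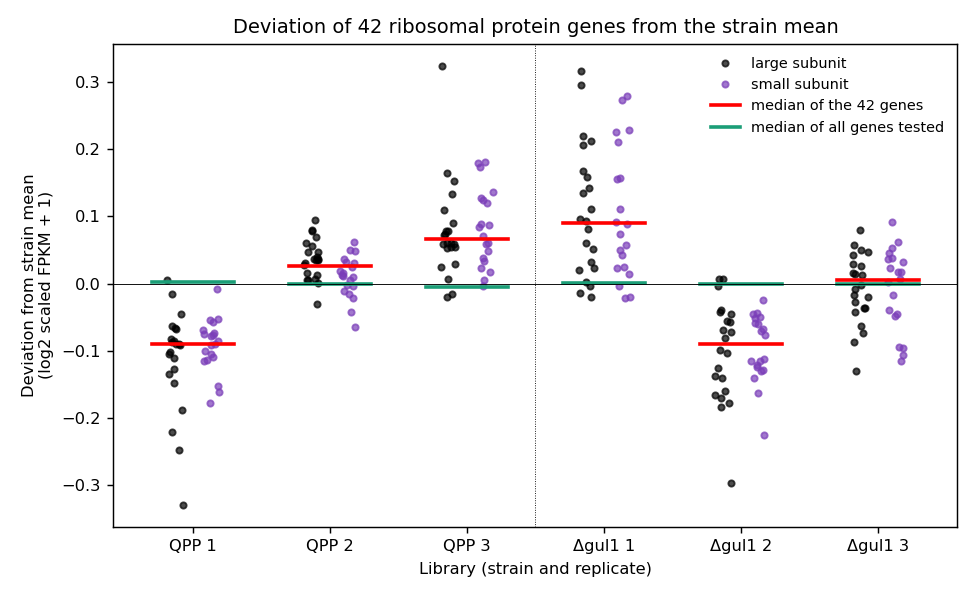
Deviation of each of the 42 genes from the mean of its strain (log2 of scaled FPKM plus 1) in each library, large subunit in black and small subunit in purple, with the median of the 42 genes (red) and of all genes tested (green). Nearly all points lie below 0 in QPP replicate 1 and Δ*gul1* replicate 2 and above 0 in QPP replicate 3 and Δ*gul1* replicate 1, alike for both subunits, while the median of all genes stays near 0.

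As a description over the 6 libraries, which share their scaling and hold 3 cultures per strain, the correlation of these deviations was computed for the 861 pairs of genes. Its median was 0.79, and 836 pairs were above 0. The median was 0.76 within the large subunit, 0.81 within the small subunit and 0.799 between them, so that the value between the subunits lay between those within them. Against the mean profile of the other genes of the set, 32 of the 42 genes (76.2%) had a correlation above 0.8. The same was found for 11.4% of all genes tested and for 34.5% of the 249 other genes with both a level and a counted length in the range of the set. The closest to the profile was *rpl28* (0.996), followed by *rps12*, *rpl38*, *rpl29* and *rla1*.

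The 3 steadiest genes of the set were among those that followed the profile least. *rpl16* (TRIREDRAFT_124010) was at 689, 673 and 699 scaled FPKM across the QPP replicates and 616, 620.4 and 617 across those of Δ*gul1*, with a correlation of −0.0224 and an SD within strains of 0.020 on the log2 scale, the smallest of the set. For *rla0* these were 0.33 and 0.0254, and for *rps3* 0.54 and 0.0329. *rps13*, *rpl11* and *rpl8* had correlations between 0.46 and 0.50. At the other extreme, *rpl29*, with 2016, 2542 and 3169 scaled FPKM across the QPP replicates and 2716, 1777 and 2153 across those of Δ*gul1*, had an SD within strains of 0.316, and *rps30* and *rpl38* had 0.219 and 0.205. The highest library of *rpl29* was 1.57 times the lowest in QPP and 1.53 times in Δ*gul1*.

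The 12 genes that passed the test are described here by values that enter it, so that a smaller spread among them follows from the choice. Their median SD within strains was 0.0601 against 0.113, their median counted length 804 against 641 bases, and their median log2 fold change −0.23 against −0.19.

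How far a gene moved between cultures went with its counted length. For the 6 genes under 500 bases the median difference was 0.31 between QPP replicates 3 and 1 and 0.36 between Δ*gul1* replicates 1 and 2. For the 18 genes of 500 to under 700 bases these were 0.19 and 0.22, for the 12 of 700 to under 1000 bases 0.14 and 0.12, and for the 6 of 1000 bases or more 0.080 and 0.044. Groups of 6 genes are thinly filled, and the trend runs through all of them. The class of *rpl35* rests on the longer of its 2 possible lengths.

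The other genes of at least 10 FPKM showed a trend in the same direction at a smaller size. Their medians fell from 0.15 and 0.19 under 500 bases to −0.0056 and 0.031 at 1000 to under 1500 bases and to −0.15 and −0.24 at 3000 bases and over. In each of the 4 length classes the median of the ribosomal protein genes was above that of the other genes, but these pairs of libraries are the highest and lowest for the set, which favours that order. The part of gene length in the shared movement was not tested. The difference between the strains did not follow length in the same way, with median log2 fold changes of −0.22, −0.19, −0.20 and −0.24 from the shortest to the longest class of the set and between −0.023 and 0.025 in the classes of the other genes.

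**Figure D4:**
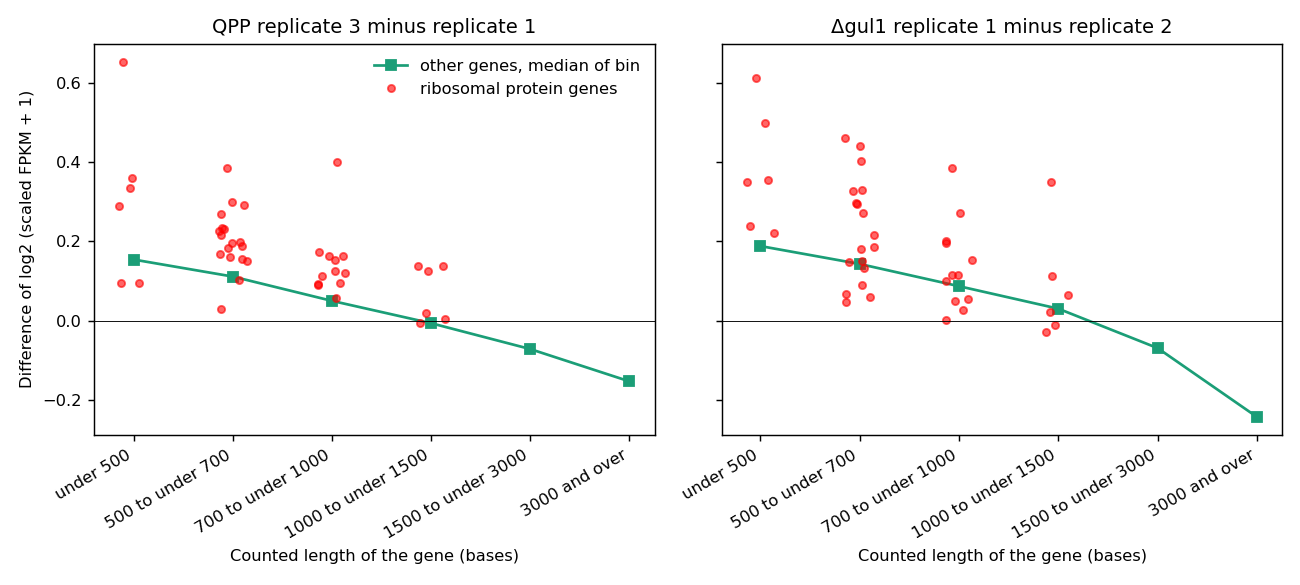
Difference between the highest and the lowest culture for the set in QPP (left) and Δ*gul1* (right), in log2 of scaled FPKM plus 1, by class of counted length in bases. Red points, spread sideways for display, are the 42 genes and green squares are medians of the other genes of at least 10 FPKM; both decline from the shorter to the longer classes.

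The scaling was also made with genes like those of the set. With size factors from the 4086 other genes in the range of counted lengths of the set, the median log2 fold change of the set was −0.21 and 20 genes were lower at an adjusted *p* under 0.05 (limma), as were 14.3% of all genes. With size factors from the 348 other genes at or above the level of *rps3* it was −0.14, 38 genes were below 0 and 6 passed, among them *rla0* and *rps3*, as did 9.73% of all genes toward lower levels. Both alternatives were chosen after the data had been seen.

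A few genes of the set lie next to each other. *rps12* ends at 753276 and *rps22* starts at 753537, with 260 bases and no annotated gene between them. *rps31* ends at 72868 and *rps26* starts at 73515, 646 bases apart. The neighbours differed in level in the first pair (763 and 424 FPKM on average) and less so in the second (1522 and 1623 FPKM). The correlation of their deviations, 0.95 and 0.78, was above the median of all pairs in the first pair and just under it in the second.

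Of the other genes of translation, the search of the table's symbols for *tef*, *eft*, *eif* or *tif* with a number found *tef1a* and *tef2*, the symbols of translation elongation factors. *tef1a* was at 1855, 1931 and 1833 FPKM in the QPP libraries and 1585, 1682 and 1732 FPKM in the mutant. After scaling, its log2 fold change was −0.33 (standard error 0.0773, adjusted *p* = 0.0163 in limma). This call was lost under 4 of the 17 alternatives, among them without QPP replicate 1 (adjusted *p* = 0.0523), without QPP replicate 2 (0.066) and with the FPKM as deposited (0.144), all in limma. *tef2* had −0.24 (standard error 0.0781, adjusted *p* = 0.0503 in limma) and did not pass. Between cultures of a strain both went against the ribosomal protein genes, with correlations to their mean profile of −0.697 and −0.93. The median counted length of *tef1a* and *tef2* was 2409 bases, which for 2 genes need not be near the length of either. Other genes of 1500 to under 3000 bases, the class that holds this median, also moved against the set. Their median differences were −0.071 between QPP replicates 3 and 1 and −0.068 between Δ*gul1* replicates 1 and 2. The part of gene length in the movement of *tef1a* and *tef2* was not tested. *tef2* was highest in QPP replicate 1 and in Δ*gul1* replicate 2, the libraries in which the set was lowest. The genes *erf1*, the symbol of a translation release factor, and *cpc2*, for a protein that in *Schizosaccharomyces pombe* binds the small subunit, were added after their values had been seen. They had log2 fold changes of −0.30 and −0.29 (adjusted *p* = 0.00355 and 0.00436 in limma, and 0.0532 and 0.0956 with the FPKM as deposited), and correlations to the profile of −0.13 and −0.695.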

How the data were processed

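The authors trimmed reads with cutadapt, aligned them to the genome of QM6a by HISAT2 and took fragment counts from HTSeq, from which FPKM for 9113 genes were deposited in a single table of 6 libraries. They correct for gene length and for each library's total only. The strand setting and the versions of these tools are not given in the sources used here. How reads of overlapping or near-identical genes were counted is therefore not known. The 42 genes are chosen by symbol alone, but this gene family and the lists were picked with earlier results of these data known.

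Library totals, counted lengths and fragments were recovered from the steps of the FPKM values (FPKM times length and total is a whole number of fragments) for 9004 of 9006 genes above 0 FPKM, 8647 of them with 1 possible length. For the others the longest length up to the annotated span was taken. Size factors by the median of ratios (0.931 to 1.07) gave scaled FPKM, and the deposited FPKM were put on a log2 scale after this division and the addition of 1. At these levels this pseudocount barely moves a fold change. The limma package (version 3.58.1, R 4.3.3) was fitted to all 9006 genes with strain as the only term and eBayes with a trend. Its *p* values were adjusted by Benjamini-Hochberg. The fit was also run on simulated data with independent noise per gene, which do not hold the shared movement of the set. The smallest *p* of an exact permutation of 3 libraries against 3 is 0.1, so none was used. SDs are of deposited FPKM, and the main counts of the 42 genes are given beside those over all genes.

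Values in every library were given for the 3 highest and lowest genes of each subunit by level, the 5 highest and lowest by log2 fold change, the *rla* genes and the 3 with the largest and smallest spread. Gene spans and locus tags are from the RefSeq annotation of the same assembly. For 2 genes of the set single values are not reported here, though they are in the counts and medians. Lists of other translation genes that needed product names were not used here. Descriptions were made in Python 3.11.15 (pandas 2.3.3, numpy 2.4.6, scipy 1.17.1). Alternatives were FPKM as deposited, upper quartile and quantile scaling, size factors from genes of at least 10 FPKM, a pseudocount of 0.1, a minimum mean of 1 FPKM, no trend, a replicate block, each library left out and, added after seeing the data, limma-voom on recovered fragments and 2 other choices of genes for the size factors.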

Additional observations from a re-analysis of the deposited data

How the results depend on the processing

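With limma under the 17 alternatives, 0 of the 42 genes passed the thresholds of the study or rose at an adjusted *p* under 0.05. With the FPKM as deposited the number of genes that fell was 0, in the large and in the small subunit as well, and the median log2 fold changes were −0.046 for the set, −0.052 for the large and −0.029 for the small subunit. Log2 fold changes then turned to 0.12 for *rpl35*, 0.15 for *rps23*, 0.063 for *rps15*, 0.0060 for *rpl32*, 0.0086 for *rps28*, 0.10 for *rps9*, 0.047 for *rps21*, 0.090 for *rpl30*, 0.022 for *rps31* and 0.0062 for *rpl16*. Leaving out 1 library gave 2 to 14 genes that fell, 1 to 8 of the large and 1 to 6 of the small subunit, medians of −0.25 to −0.15 for the set and a difference of large minus small subunit of −0.031 to 0.0097. Over these fits the log2 fold change was −0.12 to 0.012 for *rpl35*, −0.15 to 0.077 for *rps23* and −0.22 to 0.015 for *rpl30*. Without QPP replicate 3 the log2 fold change turned to 0.077 for *rps23*, without Δ*gul1* replicate 2 to 0.012 for *rpl35*, 0.072 for *rps23* and 0.015 for *rpl30*, and without Δ*gul1* replicate 3 to 0.047 for *rps23*. With quantile normalization it was 0.055 for *rps23* and 0.22 for *rps30*. Of the scalings chosen after seeing the data, size factors from other genes of the counted lengths of the set gave 20 genes that fell, 11 of them of the large subunit. Those from other genes at or above the lowest level of the set gave 6, of which 2 were of the small subunit, and turned the log2 fold change to 0.029 for *rpl35*, 0.059 for *rps23*, 0.0087 for *rps9* and 0.00063 for *rpl30*. The causes were not tested. Upper quartile and quantile scaling, size factors from genes of at least 10 FPKM, the pseudocount of 0.1 and the minimum mean of 1 FPKM called 10 to 14 genes as lower. So did the fit without the trend and limma-voom. In these fits 14.2 to 16.8% of all genes were called lower. Over all genes, the share called lower was 8.28 to 16.8% over the 17 alternatives.

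The fit with the replicate number as a block called 7 genes as lower, 3 of them of the small subunit, and 14.5% of all genes. The deviations of same-numbered libraries had correlations of −0.13, 0.23 and 0.45 over 6635 other genes, and QPP replicate 1 was closest to Δ*gul1* replicate 2, so the numbers were not taken as pairs.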
